A study of Mus musculus with 10 samples.

Results

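Collagens are the chain-forming proteins of the extracellular matrix, and their genes were examined in fetal mouse testes cultured with an inhibitor of glycogen breakdown. The members were the entries of the count table whose symbol consists of Col, a type number, the letter a and a chain number, which gave 44 of 24470 gene entries. Types 4, 15 and 18 belong to basement membranes and supplied 8 of them. The remaining 36 form fibrils, associate with fibrils, build beaded filaments or short-chain networks, span the cell membrane, or anchor basement membranes.

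Whole male gonads with their mesonephros were taken from 5 C57BL/6 embryos, M1 to M5, at E12.5 (embryonic day), and the pair from each embryo was divided between treatments. For 48 h, 1 gonad received 75 µM of the glycogen phosphorylase inhibitor CP-316819 (GPI) and its partner received the DMSO vehicle, with medium partly renewed every 24 h. After culture the gonad was separated from the mesonephros, and RNA of all its cell types together was amplified and sequenced without regard to strand. There were thus 5 vehicle and 5 GPI libraries, and the question addressed here was whether collagen transcripts differed between the gonads of the same embryo.

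Collagen chains are made as procollagens, which are hydroxylated and folded into helical trimers in the endoplasmic reticulum and are then secreted, trimmed and cross-linked. Type 4 trimers join into sheet-like networks beneath epithelia and around vessels, whereas types 1, 3 and 5 pack into the fibrils of connective tissue. In the fetal testis a basement membrane encloses the cords of Sertoli and germ cells, blood vessels carry a basement membrane of their own, and fibrillar collagens lie mainly in the interstitium and the capsule.

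Libraries held 10203679 to 15590223 counts with vehicle and 11025409 to 15635322 with GPI. Each count was brought to a common depth, the average of the 10 TMM-scaled library sizes, and is called a normalized count; series of 5 values run from M1 to M5. Fold changes are GPI over vehicle on the log2 scale with their standard error, from edgeR's quasi-likelihood test with the mouse as a block, adjusted by the Benjamini-Hochberg method over 13941 tested genes and called at an adjusted p below 0.05. The GPI library of M1 stood apart from the other GPI libraries: chi-square per degree of freedom, the squared difference between libraries relative to counting noise, was 21.7 to 27.8 against them and 7.48 to 11 among them. Among vehicle libraries, M2 lay furthest from its group, at 13.01 to 21.18 against the others, which were at 6.42 to 13.7 among themselves. The vehicle libraries of M1 and M3 held the most transcripts of mesonephric epithelium, followed by the GPI library of M2, as given with the cell type markers.

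Of the 44 collagen genes, 39 had enough counts to be tested and 5 (Col5a3, Col11a2, Col19a1, Col22a1 and Col28a1) were set aside with at most 30 counts in any library. With GPI 14 of the 39 were lower, where 11.9% of all tested genes were lower, and 2 were higher, where 11.1% of all tested genes were higher. The genes that fell were Col4a1, Col4a2, Col15a1 and Col18a1 of basement membranes, Col1a1, Col2a1, Col5a1 and Col27a1 among the fibrillar types, Col14a1, Col6a1, Col6a2, Col6a3, Col6a4 and Col7a1. The genes that rose were Col23a1 and Col25a1, both of transmembrane collagens. In 8 of the 39 every GPI library lay below every vehicle library, an arrangement found in 9.05% of all tested genes, and in 2 every GPI library lay above, as in 7.07% of all tested genes.

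Collagen transcripts took 0.628, 0.673, 0.623, 0.542 and 0.592% of all counts in the vehicle libraries and 0.43, 0.468, 0.435, 0.388 and 0.463% in the GPI libraries. The share was smaller in the GPI gonad of each of the 5 mice, and the groups did not overlap. Levels of different genes were compared as CPM (normalized to the TMM-scaled library size) per kb of the longest annotated transcript. On that scale the order with vehicle was led by Col1a2 at 219 ± 19.7 (SD, n = 5), Col3a1 at 209 ± 29.7 and Col1a1 at 156 ± 29, and the SDs of Col1a2 and Col3a1 exceeded the gap between them. Col4a1 at 88.1 ± 12.9 and Col4a2 at 76.7 ± 18.6 came next, and these also did not differ beyond their spread. Col6a2 at 40.7 ± 11.9, Col6a3 at 33.8 ± 1.77, Col6a1 at 28 ± 3.59 and Col5a1 at 27.7 ± 2.32 followed, and the spread of Col6a2 reached that of the other 3. With GPI, Col1a2 (215 ± 20.6) and Col3a1 (178 ± 19.5) still led, while Col4a1 (32.6 ± 1.77) and Col4a2 (30.9 ± 3.45) stood closer to Col6a2 (25.4 ± 3.76) and Col6a1 (22.6 ± 3.5).

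**Figure D1:**
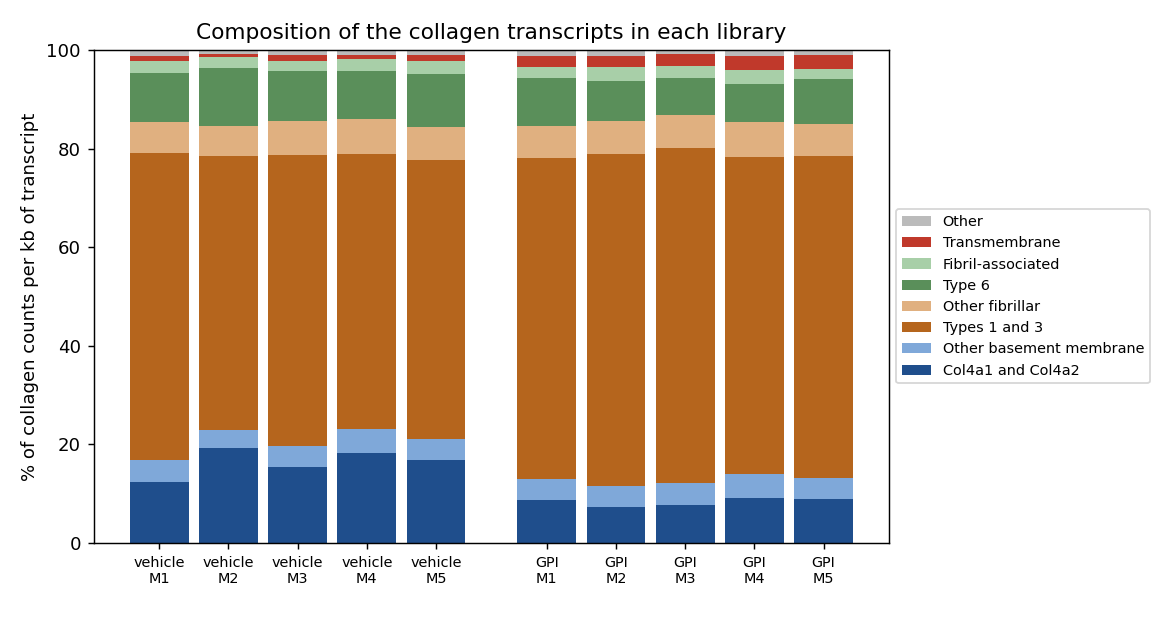
Share of each collagen group in the summed collagen level of a library, in percent of counts per kb of transcript, as stacked bars that start at 0 for the 5 vehicle and 5 GPI libraries. Col4a1 and Col4a2 together make up 12.3 to 19.3% of each vehicle bar and 7.27 to 9.03% of each GPI bar, while types 1 and 3 make up 55.6 to 62.4% and 64.3 to 67.8%.

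The plot of shares by library shows how the composition of the collagen transcripts differed between treatments. Of the summed collagen level per kb, Col4a1 and Col4a2 supplied 12.3, 19.3, 15.4, 18.2 and 16.8% with vehicle and 8.74, 7.27, 7.78, 9.03 and 8.87% with GPI, and no vehicle library reached down to the GPI range. The 6 other basement membrane genes supplied 3.67 to 4.87% with vehicle and 4.24 to 4.94% with GPI, with overlapping ranges. Types 1 and 3 took 62.4, 55.6, 59.1, 56 and 56.6% with vehicle and 65.2, 67.3, 67.8, 64.3 and 65.2% with GPI. Type 6 took 9.85 to 11.7% with vehicle and 7.55 to 9.67% with GPI, without overlap. The transmembrane types took 0.772 to 1.32% with vehicle and 2.24 to 2.86% with GPI. Shares are relative, so a smaller share of some genes makes the share of the others larger.

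Basement membrane collagens were considered first. Col4a1 and Col4a2 encode the chains of the type 4 trimer found in nearly all basement membranes. Normalized counts of Col4a1 were 5756, 8706, 6934, 7207 and 7297 with vehicle and 2719.7, 2486, 2578, 2649 and 2866 with GPI. The GPI libraries lay close together and all below the vehicle libraries, of which M2 was highest and M1 lowest. Col4a1 fell by 1.42 on the log2 scale (SE 0.09, adjusted p = 1.3e-07), to 37.3% of the vehicle level, and was lower in 5 of 5 mice. Since whole gonads were measured, fewer cells of a type that makes a transcript and less of that transcript per cell cannot be told apart, here and for every gene below.

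Normalized counts of Col4a2 were 4637, 8598, 5755, 5814 and 5681 with vehicle and 2460.1, 2339, 2356, 2196 and 2912 with GPI. Vehicle M2 was again the highest library and vehicle M1 the lowest of its group, and the treatments did not overlap. The change was -1.29 ± 0.12 (SE), to 40.9% of vehicle, lower in 5 of 5 mice with an adjusted p of 2.94e-06. The genes sit head to head on chromosome 8, Col4a1 on the minus strand at chr8:11198423-11312826 and Col4a2 on the plus strand at chr8:11312805-11449287 (mm10), and their annotated 5′ ends overlap by 22 bases. Reads in that stretch cannot be assigned to either gene in counts made without strand.

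Because Col4a1 and Col4a2 share a start region and moved together, their promoter windows are shown, each with 250 bases before and 50 after the annotated start, 5′ to 3′ on the strand of the gene. Sequences are from RefSeq, build GRCm38.p6, which had a window for 35 of the 44 collagen genes. Capitals mark CCAAT and GGGCGG and their reverse complements ATTGG and CCGCCC.
Col4a1: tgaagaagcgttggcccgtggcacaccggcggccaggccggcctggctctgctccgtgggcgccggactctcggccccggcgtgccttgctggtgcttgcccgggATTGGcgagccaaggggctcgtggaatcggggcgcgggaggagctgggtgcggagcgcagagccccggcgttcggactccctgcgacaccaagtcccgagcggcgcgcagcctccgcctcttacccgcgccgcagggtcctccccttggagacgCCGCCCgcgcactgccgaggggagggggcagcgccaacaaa
Col4a2: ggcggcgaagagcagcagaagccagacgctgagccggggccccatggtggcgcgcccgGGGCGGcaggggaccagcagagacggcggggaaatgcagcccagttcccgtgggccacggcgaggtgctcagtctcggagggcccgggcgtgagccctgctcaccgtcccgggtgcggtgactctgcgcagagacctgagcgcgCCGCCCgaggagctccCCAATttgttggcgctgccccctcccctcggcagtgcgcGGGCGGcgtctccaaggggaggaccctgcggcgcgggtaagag
The windows cover chr8:11312777-11313076 and chr8:11312555-11312854, so that 78 bases are common to both, read in opposite directions, and this common stretch holds 1 GGGCGG. The Col4a1 window also holds 1 CCAAT outside the common stretch. The Col4a2 window holds 1 CCAAT that crosses the border of that stretch and 2 further GGGCGG outside it.

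The head-to-head pair Col4a5 and Col4a6 on chromosome X encodes further type 4 chains of more restricted basement membranes, with 1342 bases between the genes. Normalized counts of Col4a5 were 936, 609, 670.0, 684 and 674 with vehicle and 736, 736, 811, 719 and 626 with GPI. The vehicle library of M1 was the highest of all, the others overlapped, and the direction differed between mice. The fold change of Col4a5 was 0.03 ± 0.10 with an adjusted p of 0.859, and its estimate was negative, at -0.02, when libraries were scaled by total counts. Col4a6 lay at 85.9 to 179 with vehicle and 119 to 183 with GPI, with a fold change of 0.29 ± 0.17 (adjusted p = 0.265). Their windows are set beside those above as a pair with the same arrangement whose transcripts did not pass the test.
Col4a5: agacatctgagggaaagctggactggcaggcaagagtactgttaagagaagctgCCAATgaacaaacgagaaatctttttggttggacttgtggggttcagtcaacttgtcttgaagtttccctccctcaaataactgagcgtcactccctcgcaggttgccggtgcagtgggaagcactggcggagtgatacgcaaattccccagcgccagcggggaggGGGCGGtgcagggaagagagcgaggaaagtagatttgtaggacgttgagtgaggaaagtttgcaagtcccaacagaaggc
Col4a6: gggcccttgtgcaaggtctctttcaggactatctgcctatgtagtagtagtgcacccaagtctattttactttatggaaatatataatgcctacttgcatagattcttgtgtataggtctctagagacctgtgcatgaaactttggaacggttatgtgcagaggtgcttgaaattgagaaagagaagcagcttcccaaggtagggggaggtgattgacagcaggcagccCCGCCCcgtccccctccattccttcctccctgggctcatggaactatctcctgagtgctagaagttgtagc
These cover chrX:141475169-141475468 and chrX:141474027-141474326 and share no base. CCAAT, read on both strands, was found in the Col4a5 window and not in the Col4a6 window, and GGGCGG in both.

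Over all 32851 promoter windows of this length, CCAAT on either strand was present in 37.4%, GGGCGG on either strand in 35.7% and TATAAA on either strand in 13.6%. Among the 35 collagen windows, CCAAT was present in 12 (34.3%), GGGCGG in 22 (62.9%) and TATAAA in 5 (14.3%). The median GC content was 60.0% in collagen windows and 52.7% in all windows. A match describes the sequence and is no evidence that a factor bound there.

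Col4a3 and Col4a4, the chains known from the glomerular basement membrane, lie head to head on chromosome 1 with 71 bases between them. Both were present at low levels, Col4a3 at 165 to 205 normalized counts with vehicle and 118 to 168 with GPI, and Col4a4 at 272 to 434 and 274 to 359. Neither passed the test: the fold change was -0.32 ± 0.14 for Col4a3 (adjusted p = 0.119) and -0.16 ± 0.10 for Col4a4 (adjusted p = 0.317).

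Col15a1 and Col18a1 encode chains with large interrupted domains that attach basement membranes to the neighbouring matrix, and Col18a1 is the source of endostatin. Normalized counts of Col18a1 were 1346, 1377, 1358, 1576 and 1091 with vehicle and 844, 1044, 902, 1035 and 998 with GPI. The groups were separated by a narrow gap, between vehicle M5 and GPI M2. Col18a1 changed by -0.48 ± 0.09 (adjusted p = 0.00138), lower in 5 of 5 mice but by 0.13 on the log2 scale in M5. Col15a1 lay at 424 to 654 with vehicle and 238 to 429 with GPI, where GPI M5 exceeded vehicle M4. Its change was -0.76 ± 0.13 (adjusted p = 0.000582), lower in 5 of 5 mice. The range of change within the basement membrane class therefore ran from -1.42 for Col4a1 to 0.29 for Col4a6. The estimate of Col4a6 lay between 0.15 and 0.38 with each mouse left out.

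**Figure D2:**
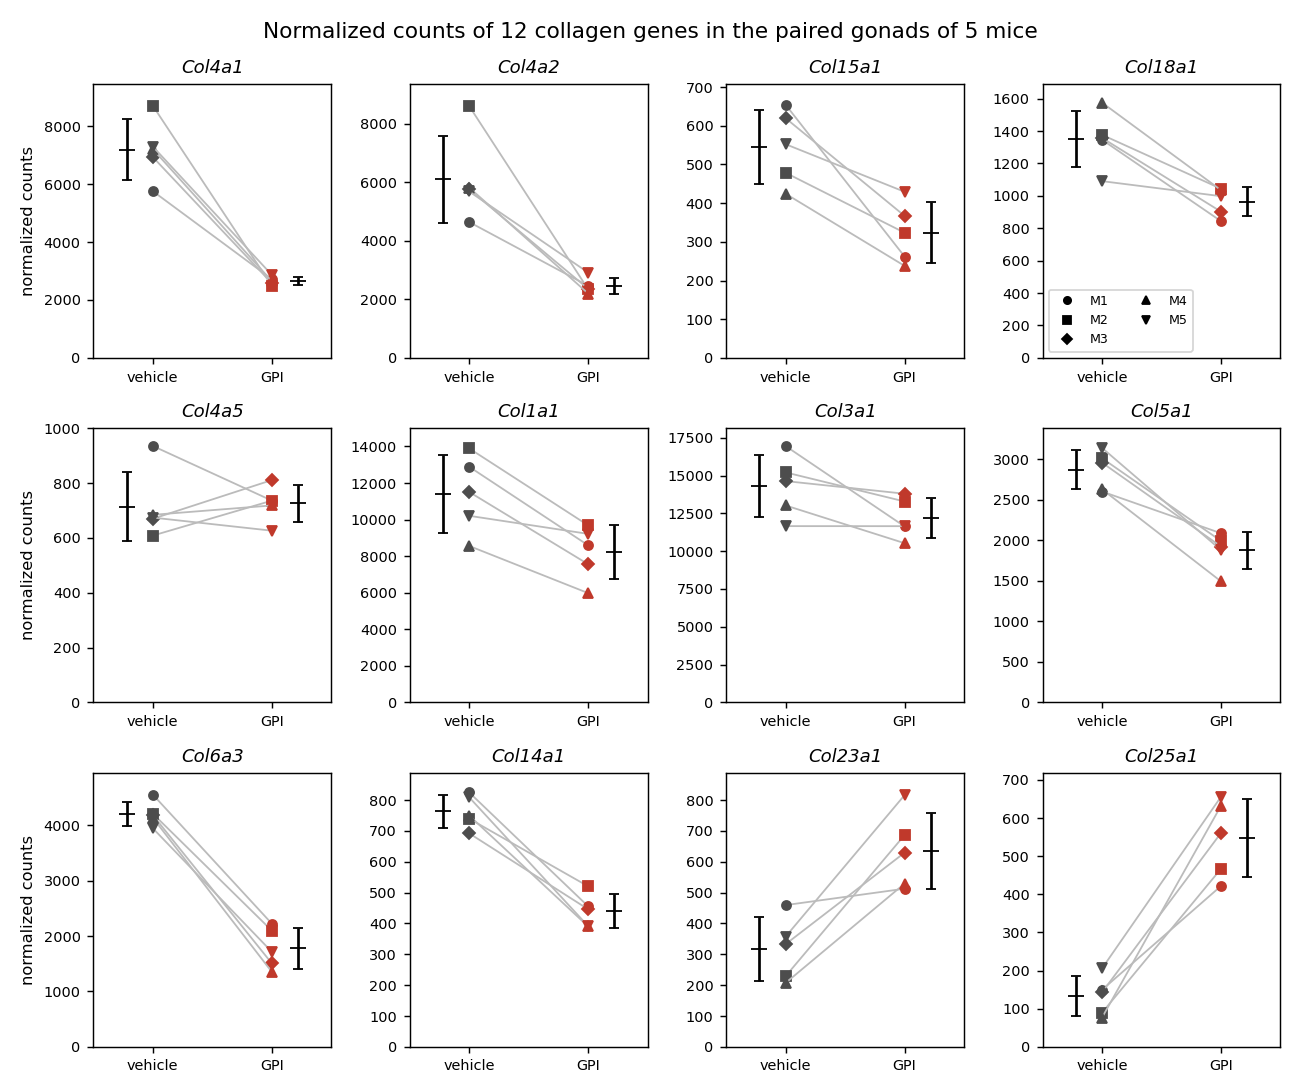
Normalized counts of 12 collagen genes in each of the 10 libraries, with a line joining the vehicle and GPI gonad of the same mouse and bars at the side for mean and SD (n = 5); every vertical axis starts at 0. Col4a1, Col4a2, Col6a3, Col5a1, Col14a1 and Col18a1 fall without overlap, Col23a1 and Col25a1 rise without overlap, and Col4a5 and Col3a1 overlap between treatments.

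Fibrillar collagens gave the highest levels of the family. Col1a1 and Col1a2 encode the chains of type 1 collagen, the main fibril of connective tissue. Normalized counts of Col1a1 were 12890.1, 13893, 11510.5, 8556 and 10207 with vehicle and 8591, 9684, 7558, 5977 and 9217 with GPI. Mice differed in level, M4 being lowest under both treatments, so that the groups overlapped although each GPI gonad lay below its partner. Col1a1 changed by -0.48 ± 0.08 (adjusted p = 0.000387), lower in 5 of 5 mice. Normalized counts of Col1a2 were 15283, 13612, 15460.2, 12569.6 and 15319.7 with vehicle and 12663, 15059, 15107, 12699.9 and 15302 with GPI. Both groups covered nearly the same range, and 3 of 5 mice were lower with GPI. The fold change of Col1a2 was -0.03 ± 0.07 (adjusted p = 0.819), and the estimate was positive, at 0.10, after removal of a trend on GC content and length. Whether the changes of Col1a1 and Col1a2 differed from each other was not tested.

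Col3a1 forms type 3 collagen, a thinner fibril often found with type 1. Normalized counts of Col3a1 were 16956, 15214, 14638, 13027 and 11659 with vehicle and 11635, 13288, 13802, 10529 and 11656 with GPI. Vehicle M1 was the highest library, the groups overlapped, and the gonads of M5 had nearly equal values. The fold change was -0.23 ± 0.08 and missed the threshold (adjusted p = 0.0539). Over the alternatives its adjusted p ran from 0.011 to 0.301, and Col3a1 passed at 0.0355 without M5, at 0.0473 when every library had to hold at least 10 counts, at 0.045 with DESeq2's size factors, at 0.0332 with limma-voom and at 0.029 with DESeq2. It also passed at 0.019 without a low-count filter and at 0.011 with scaling by total counts.

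Type 5 collagen starts and limits the growth of type 1 fibrils. Normalized counts of Col5a1 were 2599.9, 3011, 2956, 2628 and 3138 with vehicle and 2085, 1990.3, 1922, 1492 and 1877 with GPI. All GPI libraries lay below all vehicle libraries, GPI M4 being the lowest. Col5a1 changed by -0.62 ± 0.08 (adjusted p = 6.95e-05), lower in 5 of 5 mice. Normalized counts of Col5a2, its partner chain, were 1664, 1531, 1769, 1444 and 1469 with vehicle and 1168, 1403, 1355, 1316 and 1445 with GPI. The groups met at their edges, GPI M5 lying level with vehicle M4, and the difference in M5 was small. Its fold change was -0.23 ± 0.08 (adjusted p = 0.0623). Over the alternatives the adjusted p of Col5a2 ran from 0.0239 to 0.585, passing at 0.0455 without the replicate block, 0.0473 without M5, 0.0476 with DESeq2 and 0.0239 with scaling by total counts.

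Col27a1 and Col11a1 belong to minor fibrils that were first described in cartilage. Normalized counts of Col27a1 were 909, 1005, 897, 751 and 802 with vehicle and 490.2, 713, 701, 557 and 666 with GPI. GPI M1 was lowest and no GPI library reached the lowest vehicle library, M4. Col27a1 changed by -0.49 ± 0.10 (adjusted p = 0.00241), and this call was lost at an adjusted p of 0.0566 after removal of the trend on GC content and length, the highest value over the alternatives (8.98e-05 to 0.0566). Normalized counts of Col11a1 were 832, 683, 849.8, 819.8 and 642 with vehicle and 685, 981, 869, 954 and 816 with GPI. The groups overlapped, and 4 of 5 mice had a higher value with GPI. Its fold change was 0.17 ± 0.11 (adjusted p = 0.3).

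Col2a1, the chain of cartilage fibrils, had few counts. Its normalized counts were 16.6, 41.8, 20.1, 45.8 and 10.7 with vehicle and 14.5, 13.8, 5.7, 11.6 and 4.4 with GPI. The spread with vehicle was wide, with M2 and M4 high, and vehicle M5 lay within the GPI range. Col2a1 changed by -1.38 ± 0.41 (adjusted p = 0.026), lower in 5 of 5 mice. That call did not survive the loss of M2 (adjusted p = 0.0773), M3 (0.0804) or M4 (0.128), within a range of 0.0113 to 0.128 over the alternatives. Col24a1, another fibrillar chain, lay at 83.7 to 125 with vehicle and 49.2 to 88.4 with GPI, with a fold change of -0.52 ± 0.19 (adjusted p = 0.0637). Col24a1 passed at 0.0429 with scaling by total counts (range over the alternatives 0.0429 to 0.283).

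Fibril-associated collagens decorate the surface of fibrils and do not form fibrils by themselves. Normalized counts of Col14a1 were 825, 739.8, 692, 750.1 and 809 with vehicle and 456, 520.5, 446, 390.3 and 391 with GPI. Both groups were tight and did not overlap. Col14a1 changed by -0.80 ± 0.10, to 57.6% of vehicle (adjusted p = 5.45e-05), lower in 5 of 5 mice. Normalized counts of Col12a1, its close relative, were 951, 396, 550.5, 443 and 371 with vehicle and 572, 757, 659.9, 442 and 282 with GPI. Vehicle M1 held the highest value and GPI M5 the lowest, and the direction differed between mice. Its fold change was 0.01 ± 0.18 (adjusted p = 0.975), with a sign that turned negative without M2 (-0.22) or M3 (-0.07) and with scaling by total counts (-0.04).

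The remaining members of that class were less abundant. Col16a1 lay at 143 to 238 with vehicle and 88.4 to 179 with GPI, with a fold change of -0.50 ± 0.18 (adjusted p = 0.0662). Its adjusted p ran from 0.00805 to 0.273 over the alternatives and passed at 0.00805 without M2, 0.0334 without a low-count filter and 0.0423 with scaling by total counts. Col9a1, Col9a2 and Col9a3, the chains of type 9 collagen of cartilage, had fold changes of 0.13, 0.03 and 0.20 with adjusted p of 0.854, 0.952 and 0.47. Col9a3 overlaps Tcfl5 on the other strand by 230 bases, and reads there cannot be told apart. Col20a1, at 1.2 to 25.7 normalized counts with vehicle and 6.5 to 22.4 with GPI, had a fold change of -0.07 ± 0.53 (adjusted p = 0.948).

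Type 6 collagen forms beaded filaments between fibrils and basement membranes, from a Col6a1 and a Col6a2 chain joined by Col6a3 or, in some tissues, by Col6a4, Col6a5 or Col6a6. Normalized counts of Col6a3 were 4552, 4208, 4181, 4134 and 3944 with vehicle and 2224, 2098, 1507, 1354 and 1715 with GPI. The vehicle libraries lay close together, and the highest GPI library, M1, lay well below the lowest of them. Col6a3 changed by -1.26 ± 0.09, to 41.7% of vehicle (adjusted p = 4.85e-07), lower in 5 of 5 mice. Normalized counts of Col6a2 were 2306, 3664, 2401, 1744 and 2200.3 with vehicle and 1603, 1526, 1442, 1253 and 1873 with GPI. Vehicle M2 stood above the rest, and GPI M5 exceeded vehicle M4, so that the groups overlapped. Col6a2 changed by -0.65 ± 0.12 (adjusted p = 0.0011), lower in 5 of 5 mice.

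Normalized counts of Col6a1 were 1339.8, 1605, 1420.4, 1148 and 1551 with vehicle and 1246, 1137, 1085, 886 and 1356 with GPI. The groups overlapped, and the difference within a mouse was smallest in M1. Col6a1 changed by -0.31 ± 0.08 (adjusted p = 0.0114), lower in 5 of 5 mice, which is 80.6% of vehicle. This call was lost without the replicate block (adjusted p = 0.0622), without M4 (0.0507) and after removal of the GC and length trend (0.0755), within a range of 0.00403 to 0.0755. Normalized counts of Col6a4, a rare chain, were 46.5, 76.4, 49.1, 55.8 and 73.1 with vehicle and 5.6, 22.7, 20.9, 24.2 and 7.6 with GPI. All GPI libraries were lower than all vehicle libraries, M1 and M5 holding the fewest counts. Col6a4 changed by -1.96 ± 0.36 (adjusted p = 0.00128), lower in 5 of 5 mice.

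Col6a6 lay at 216 to 371 with vehicle and 177 to 259 with GPI, with a fold change of -0.33 ± 0.12 (adjusted p = 0.0638). It passed at 0.0363 with scaling by total counts (range over the alternatives 0.0363 to 0.35). Col6a5, at 6.7 to 41.0 with vehicle and 6.5 to 17.1 with GPI, had a fold change of -0.86 ± 0.50 (adjusted p = 0.253). Its estimate ran from -1.35 to -0.52 with each mouse left out. Col6a4, Col6a5 and Col6a6 lie in a row on chromosome 9, all on the minus strand, with 29674 and 27984 bases between neighbours, and Col6a1 and Col6a2 are 85387 bases apart on chromosome 10.

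Transmembrane collagens remain anchored in the cell surface, from which their collagenous part can be shed. Normalized counts of Col25a1, which is known for its part in motor axon entry into muscle, were 149.5, 89.5, 143, 76.7 and 206 with vehicle and 422, 467, 561, 632 and 656 with GPI. The lowest GPI library, M1, held more than the highest vehicle library, M5. Col25a1 rose by 2.08 ± 0.18 (adjusted p = 2.57e-06), to 424% of vehicle, higher in 5 of 5 mice. Normalized counts of Col23a1 were 459.5, 229, 333, 207 and 357 with vehicle and 513, 687, 629.5, 529 and 816 with GPI. The groups were apart, although in M1 the vehicle value was high and the rise was 0.16 on the log2 scale. Col23a1 rose by 1.04 ± 0.16 (adjusted p = 0.000387), to 205% of vehicle, higher in 5 of 5 mice.

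Promoter windows of both risen genes are shown with the same letters in capitals, to set them beside those of the type 4 genes.
Col25a1: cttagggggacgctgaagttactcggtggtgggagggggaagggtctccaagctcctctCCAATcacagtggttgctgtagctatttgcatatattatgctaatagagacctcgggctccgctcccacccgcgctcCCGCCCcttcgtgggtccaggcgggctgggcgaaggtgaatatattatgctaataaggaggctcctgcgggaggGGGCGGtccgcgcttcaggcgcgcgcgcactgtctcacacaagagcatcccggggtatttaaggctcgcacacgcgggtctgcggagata
Col23a1: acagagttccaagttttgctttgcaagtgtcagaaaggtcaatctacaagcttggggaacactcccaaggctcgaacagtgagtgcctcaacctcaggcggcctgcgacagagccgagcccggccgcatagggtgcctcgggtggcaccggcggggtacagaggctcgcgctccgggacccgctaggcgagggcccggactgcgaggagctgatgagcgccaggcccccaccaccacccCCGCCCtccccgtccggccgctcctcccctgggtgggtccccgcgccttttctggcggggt
They cover chr3:130180595-130180894 and chr11:51289670-51289969 on the plus strand. The Col25a1 window holds 1 CCAAT and 2 GGGCGG, and the Col23a1 window holds 1 GGGCGG and no CCAAT.

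Col13a1, of cell adhesion sites, lay at 112 to 201 with vehicle and 106 to 149 with GPI, with a fold change of -0.39 ± 0.18 (adjusted p = 0.155). Its adjusted p was 0.0189 without M1 (range over the alternatives 0.0189 to 0.437), and in M1 the direction was opposite to the other 4 mice. Col17a1, of hemidesmosomes, held at most 31.6 normalized counts in a library and had a fold change of -0.26 ± 0.60 (adjusted p = 0.812). Transmembrane members thus included genes with estimates in either direction.

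Col7a1 forms the fibrils that anchor epithelial basement membranes. Normalized counts of Col7a1 were 114, 50.1, 65.9, 23.9 and 48.8 with vehicle and 19.0, 24.3, 10.5, 22.1 and 44.7 with GPI. Vehicle M1 was far above the others, vehicle M4 lay within the GPI range, and M4 and M5 differed little between treatments. Col7a1 changed by -1.26 ± 0.41 (adjusted p = 0.0391). The call was lost without M1 (-0.94, adjusted p = 0.138), M2 (-1.32, 0.077) or M3 (-0.97, 0.153) and after removal of the GC and length trend (-1.04, 0.0903), within a range of 0.00705 to 0.569. With M1 and M3 both left out, a choice made after seeing the data, its log2 fold change was -0.44 (adjusted p = 0.569).

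Col26a1, a collagen of testis and ovary, lay at 168 to 244 with vehicle and 121 to 189 with GPI, with a fold change of -0.32 ± 0.14 (adjusted p = 0.115). The short-chain genes Col8a1, Col8a2 and Col10a1 had fold changes of -0.41, -0.32 and 0.36, with adjusted p of 0.582, 0.404 and 0.313. Leaving out each mouse gave -0.83 to -0.05 for Col8a1, -0.57 to -0.20 for Col8a2 and 0.25 to 0.47 for Col10a1. Col10a1 lies wholly inside Nt5dc1 on the other strand, so its counts may hold reads of that gene. The 5 genes set aside ranged from 0 normalized counts for Col5a3, Col19a1 and Col28a1 to 32.7 for Col22a1 in GPI M5.

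Basement membrane collagens were then set against fibrillar and other types. Of the 8 basement membrane genes, 4 (50.0%) were lower and 0 higher with GPI by edgeR. Of the 31 tested genes of other types, 10 (32.3%) were lower and 2 (6.45%) higher. Over all tested genes, 11.9% were lower and 11.1% higher. The median log2 fold change was -0.40 in the basement membrane list, -0.32 in the other list and 0.02 over all tested genes. Ranges overlapped widely, from -1.42 to 0.29 and from -1.96 to 2.08. Mouse by mouse, the median log2 ratio of the basement membrane list was -0.51, -0.46, -0.41, -0.36 and -0.33 and that of the other list -0.52, -0.24, -0.39, -0.16 and -0.27. The basement membrane median was the lower in 4 of the 5 mice, though in M3 only narrowly (-0.41 against -0.39), and in M1 both were about equal. The order of the fitted medians rested on M2: without that mouse they were -0.39 for basement membrane and -0.46 for the other list, so that the other list was the lower. Without M1 and M3, left out after seeing the data, the medians were -0.41 and -0.19, with 13 collagen genes lower and 2 higher. No test was run on the difference between the lists, which share mice and libraries.

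**Figure D3:**
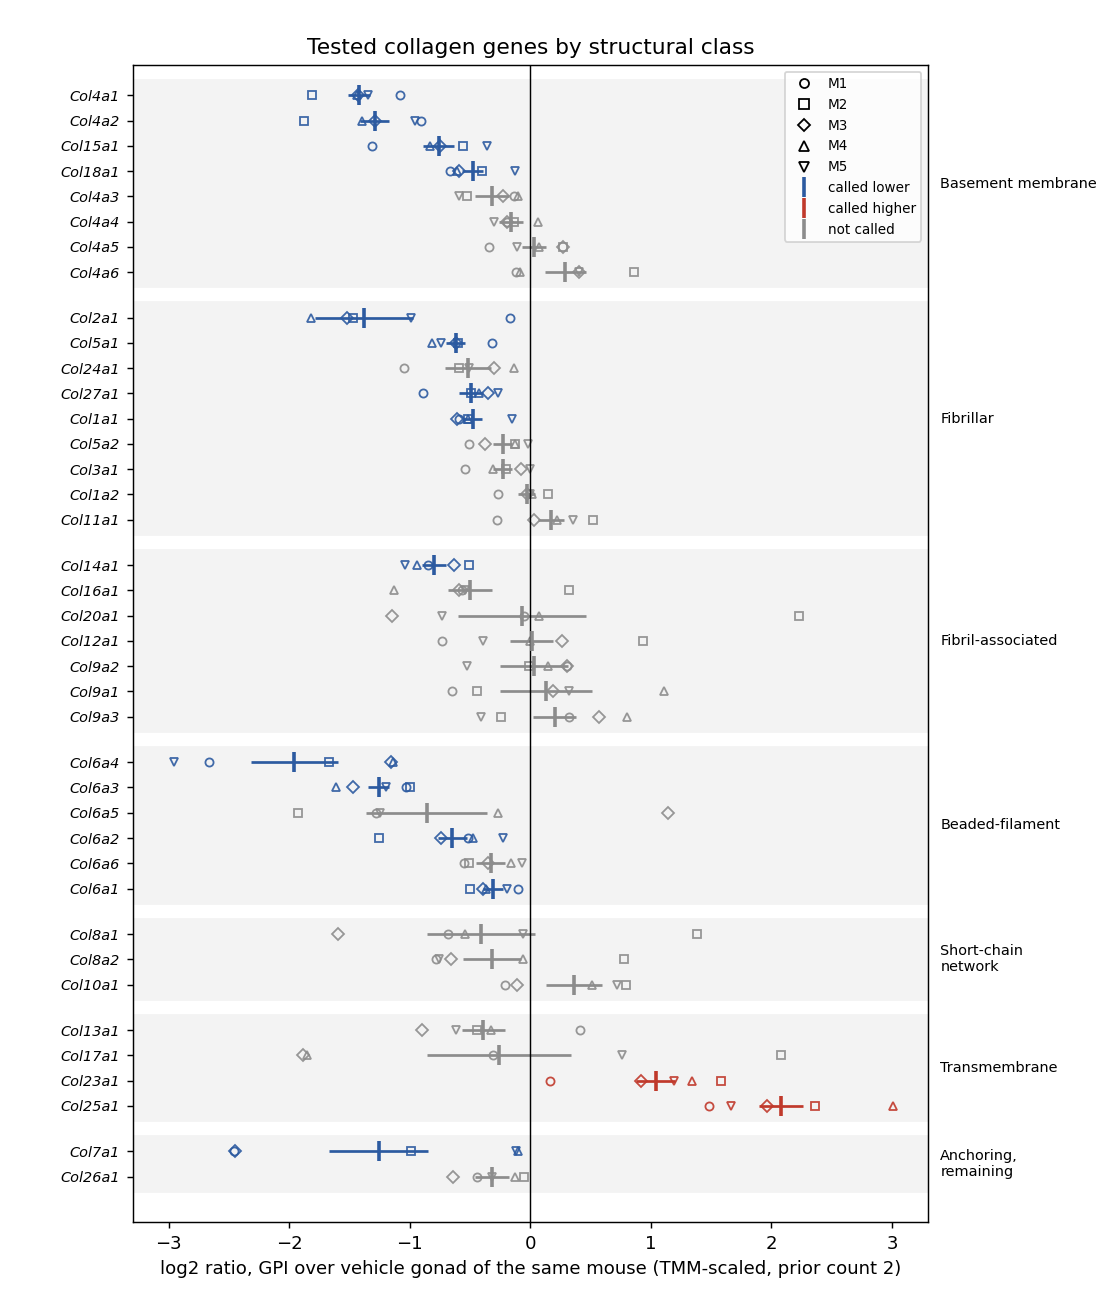
Log2 ratio of GPI over vehicle in each mouse (symbols) for the 39 tested collagen genes, ordered by class, with the fitted log2 fold change and its SE (vertical mark and bar). Blue genes were called lower, red genes higher and grey genes were not called. Col4a1 (-1.42) and Col6a3 (-1.26) lie at -1.0 or lower in every mouse, whereas Col7a1 and Col2a1 show wide spread.

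The plot of ratios by class shows Col4a1 at -1.81 to -1.08 and Col6a3 at -1.61 to -1.0 over the mice. Ratios were scattered for rare members such as Col17a1, at -1.89 to 2.08. Within each class the called genes were a subset: 4 of 9 fibrillar, 1 of 7 fibril-associated, 4 of 6 beaded-filament, 0 of 3 short-chain, 2 of 4 transmembrane (higher) and 1 of 2 anchoring and remaining genes tested. Beside these small counts, 11.9% of all tested genes were lower and 11.1% were higher. Basement membrane genes had a median of 8.72 CPM per kb with vehicle, other collagens 3.82 and all tested genes 5.8. Collagen transcripts are long and GC-rich, with a median length of 6576 bases and GC content of 55.0% in the basement membrane list and 5588 bases and 55.2% in the other list, against 3506 bases and 49.4% for the 13303 tested genes with an annotated transcript. After removal of a trend on both properties, 11 collagen genes were lower and 2 higher, and the medians were -0.27 and -0.21.

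**Figure D4:**
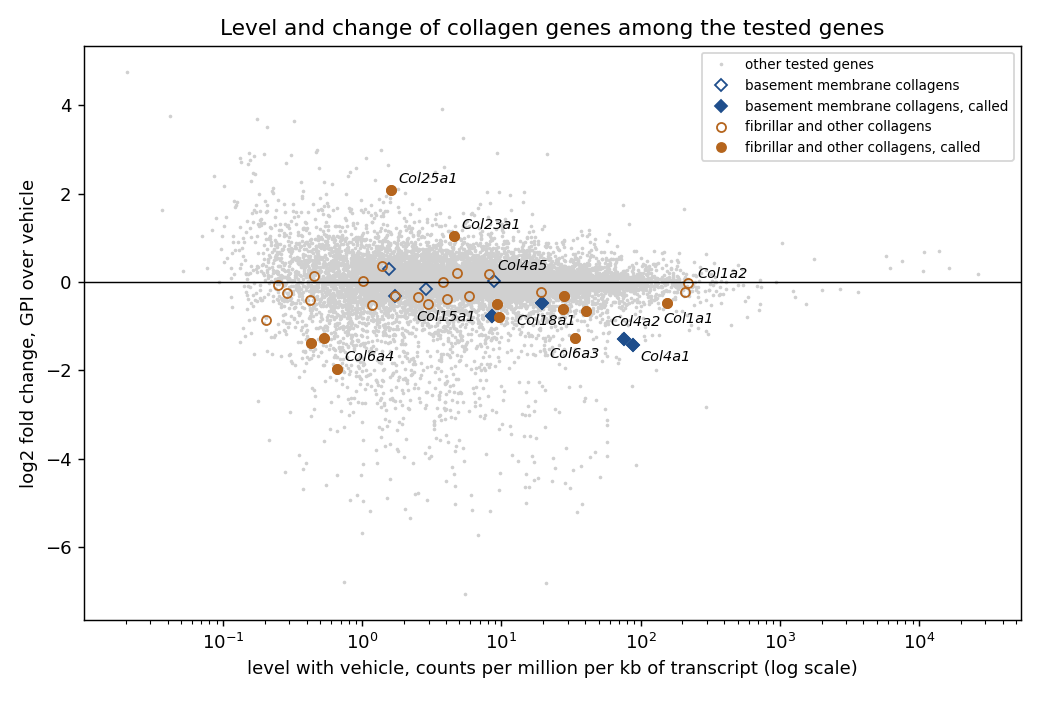
Log2 fold change against the level with vehicle, in CPM per kb on a log axis, for the tested genes with an annotated transcript (grey) and the tested collagen genes (diamonds for basement membrane, circles for other types, filled where called). Col4a1 and Col4a2 lie at 88.1 and 76.7 on the level axis with fold changes of -1.42 and -1.29, and Col1a2, at 219, lies near 0.

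The plot of level against change places called collagens at low levels, such as Col2a1, and at high levels, such as Col1a1. Chains of the same type were next compared as ratios of counts per kb within a library, where depth and scaling cancel; these are descriptions without a test. The ratio of Col4a1 to Col4a2 was 1.21, 0.99, 1.17, 1.21 and 1.25 with vehicle and 1.08, 1.04, 1.07, 1.18 and 0.96 with GPI, so that the groups overlapped. The ratio of Col4a1 to Col4a5 was 6.08, 14.14, 10.23, 10.41 and 10.69 with vehicle and 3.65, 3.34, 3.14, 3.64 and 4.52 with GPI, without overlap, and lower in all 5 mice. Between partner chains of type 1, the ratio of Col1a1 to Col1a2 was 0.76, 0.92, 0.67, 0.61 and 0.60 with vehicle and 0.61, 0.58, 0.45, 0.42 and 0.54 with GPI, lower in all 5 mice but with overlap at 0.60 and 0.61.

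In type 6, the ratio of Col6a3 to Col6a1 was 1.38, 1.06, 1.19, 1.46 and 1.03 with vehicle and 0.72, 0.75, 0.56, 0.62 and 0.51 with GPI. Every GPI library was below every vehicle library. The ratio of Col6a1 to Col6a2 was 0.70, 0.52, 0.71, 0.79 and 0.84 with vehicle and 0.93, 0.89, 0.90, 0.85 and 0.87 with GPI, higher in all 5 mice and nearly constant among the GPI libraries. The ratio of Col5a1 to Col5a2 was 1.23, 1.55, 1.32, 1.43 and 1.68 with vehicle and 1.41, 1.12, 1.12, 0.89 and 1.02 with GPI, and was lower in 4 of 5 mice, M1 being the exception. The ratios of Col4a3 to Col4a4 (0.51 to 0.72 with vehicle, 0.39 to 0.67 with GPI) and of Col4a5 to Col4a6 (4.95 to 7.20 and 3.48 to 6.15) overlapped.

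**Figure D5:**
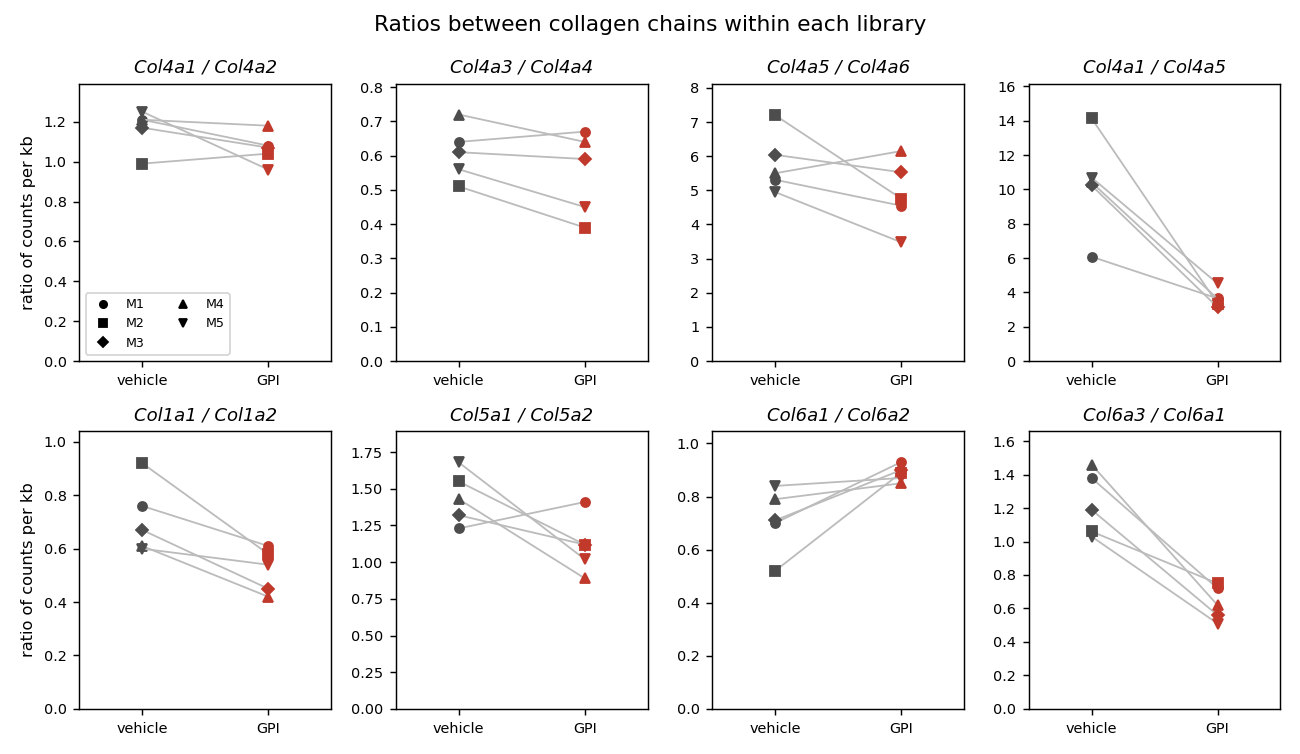
Ratio of counts per kb between 2 collagen chains in the same library, for 8 pairs, with a line joining the gonads of a mouse; axes start at 0. Col6a3 to Col6a1 and Col4a1 to Col4a5 are lower with GPI in each mouse without overlap, whereas Col4a1 to Col4a2 stays between 0.96 and 1.25 in all 10 libraries.

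The plot of chain ratios shows the pairs side by side. Enzymes and partners of collagen came from lists of 54 genes, of which 51 were tested; 17 were lower and 4 higher with GPI, where 11.9% and 11.1% of all tested genes were lower and higher. The counts of the lists below are small and are given as descriptions beside those shares. Prolyl and lysyl modification enzymes hydroxylate and glycosylate the new chains, and 3 of 15 were lower and 0 higher, near the share of all tested genes. GPI M1 stood apart in this list, with summed normalized counts of 18359. The sums were 10073.5 to 11213 in the other GPI libraries and 12152 to 15004 with vehicle. P3h2, a prolyl 3-hydroxylase that acts on type 4 collagen, changed by -1.03 ± 0.12 (adjusted p = 2.01e-05), and Colgalt2, a galactosyltransferase of hydroxylysine, by -1.62 ± 0.21 (adjusted p = 6.35e-05), each lower in 5 of 5 mice. Normalized counts of P4ha1, a catalytic subunit of prolyl 4-hydroxylase, were 1215, 1172, 869, 784 and 871 with vehicle and 1308, 523, 303, 471 and 429 with GPI. GPI M1 was the highest library of all and the other 4 GPI libraries lay below the vehicle libraries. P4ha1 changed by -0.86 ± 0.17 (adjusted p = 0.00246), and the call was lost without the replicate block (adjusted p = 0.104, range over the alternatives 5.34e-06 to 0.104). Plod1, a lysyl hydroxylase, had a fold change of -0.26 ± 0.11 (adjusted p = 0.113).

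Of 8 folding and export genes, 0 were lower and 1 was higher, again near the share of all tested genes. The latter was Creb3l1, a transcription factor of the secretory pathway (0.30 ± 0.09, adjusted p = 0.0232), higher in 4 of 5 mice, a call lost without the replicate block (0.0528), with scaling by total counts (0.0588) and without M1 (0.107), M3 (0.0988), M4 (0.0589) or M5 (0.0883), within 0.00256 to 0.107. Mia3 and Mia2, which load procollagen into transport carriers, and Fkbp14, a prolyl isomerase, had fold changes of 0.18, 0.25 and -0.29, with adjusted p of 0.087, 0.0529 and 0.0698. Mia2 passed without M1 (0.00504), without the replicate block (0.0405) and in 4 further alternatives (0.00504 to 0.229), Mia3 after removal of the GC and length trend (0.049, range 0.049 to 0.244) and Fkbp14 with scaling by total counts (0.0344, range 0.0344 to 0.172). Of 6 tested processing genes, 2 of 8 listed being set aside for low counts, 2 were lower: Pcolce, an enhancer of procollagen trimming (-0.37 ± 0.09, adjusted p = 0.00884), and Bmp1, the C-proteinase (-0.39 ± 0.11, adjusted p = 0.0231). Bmp1 lost its call without M1 (0.0507), M3 (0.0855) or M4 (0.114) and after removal of the GC and length trend (0.129), within 0.0105 to 0.129. Adamts2, the N-proteinase, and Tll1 did not pass, at -0.18 ± 0.09 (adjusted p = 0.178) and 0.36 ± 0.32 (adjusted p = 0.475).

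Cross-linking enzymes join chains after secretion, and 3 of 6 were lower. Pxdn, the peroxidase that makes the sulfilimine bond of type 4 collagen, changed by -0.45 ± 0.07 (adjusted p = 0.000369), without overlap between groups. Loxl2, a lysyl oxidase that also acts on type 4 collagen, gave normalized counts of 1942, 1807, 1567, 1599.7 and 1547 with vehicle and 2037, 916, 927, 942 and 959.9 with GPI. The other GPI libraries lay together far below GPI M1. Loxl2 changed by -0.62 ± 0.12 (adjusted p = 0.00196), lower in 4 of 5 mice. Loxl1 changed by -0.55 ± 0.15 (adjusted p = 0.018), a call lost without M3 (0.0909) or M4 (0.0878) and after removal of the GC and length trend (0.0662), within 0.00621 to 0.0909. Loxl4 had a fold change of -0.46 ± 0.32 (adjusted p = 0.349).

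Of 9 tested collagen receptors, 5 were lower and 2 higher. Itga1, the integrin subunit with a preference for type 4 collagen, gave 940.1, 479.7, 629.8, 612 and 431 with vehicle and 96.3, 225, 80.8, 96.8 and 71.9 with GPI. No GPI library reached the vehicle range, and the change was -2.49 ± 0.24 (adjusted p = 6.33e-06). Itga2, a subunit that binds fibrillar collagens, changed by -2.72 ± 0.17 (adjusted p = 1.19e-07), and their shared partner Itgb1 by -0.62 ± 0.07 (adjusted p = 1.58e-05), each lower in 5 of 5 mice. The receptor kinases Ddr1 and Ddr2 went the other way. Ddr2, which binds fibrillar collagens, rose by 1.09 ± 0.19 (adjusted p = 0.000837) and Ddr1 by 0.43 ± 0.10 (adjusted p = 0.00642), each higher in 5 of 5 mice. Of 7 proteoglycans that bind collagen fibrils, 4 were lower and 1 higher. Bgn changed by -0.74 ± 0.09 (adjusted p = 5.82e-05), Fmod by -0.67 ± 0.19 (adjusted p = 0.019), Prelp by -0.62 ± 0.20 (adjusted p = 0.0408) and Ogn rose by 0.80 ± 0.12 (adjusted p = 0.000368). Ogn lies wholly within Cenpp on the other strand, so its counts may hold reads of that gene, and Ddr2 overlaps 3110045C21Rik on the other strand in a short stretch. Fmod lost its call without M2 (0.0784) or M4 (0.0718), within 0.00883 to 0.0784, and Prelp without M2 (0.13), M3 (0.0725) or M4 (0.187) and after removal of the GC and length trend (0.0735), within 0.00883 to 0.187.

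Markers of cell types that make or adjoin collagen are given for the whole gonad, as sums of normalized counts over each list. The most abundant marker is named by its mean normalized count over all 10 libraries, a rank that also reflects transcript length. The same markers led by their mean with vehicle. By CPM per kb with vehicle, Acta2, Dppa3, Nr2f2 and Hapln1 led the pericyte, germ cell, interstitial and cartilage lists instead, and Cdh5 and Erg were level. Endothelial markers were lower in 14 of 14, with sums of 10554, 10877, 10389, 11874 and 10947 with vehicle and 1348, 1603, 1056, 833 and 1001 with GPI. Cdh5 was the most abundant, though Kdr and Erg had higher means with GPI. It changed by -3.63 ± 0.12 (adjusted p = 3.76e-10), beside Pecam1 (-4.16), Flt1 (-5.18) and Kdr (-2.44), and no endothelial marker was at 0 in any library. Cdh5 overlaps Gm29682 on the other strand, and reads of the common stretch cannot be told apart. The sums separated the treatments in the same direction as Col4a1, Col4a2, Col15a1, Col18a1, Itga1 and Pxdn, and the part of endothelial cells in the change of these genes was not tested. Smooth muscle and pericyte markers were lower in 4 of 8 tested of 9, with sums of 4743, 5261, 5713, 5206 and 4956 with vehicle and 3299.5, 2974, 3027, 2366 and 2857 with GPI. Pdgfrb, the most abundant (-1.55), Rgs5 (-4.32), Cspg4 (-1.44) and Notch3 (-0.82) fell, whereas Acta2, Tagln and Myh11 had fold changes of -0.12, -0.09 and -0.15 and did not pass. With GPI, Acta2 exceeded Pdgfrb in every library. None of these markers was at 0 in a library, and the part of pericytes in the fall of Col4a1, Col4a2 and Col6a3 was not tested.

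Sertoli cell markers were higher in 7 of 9 and lower in 0, with sums of 10998, 12713, 10824, 12548 and 12369.7 with vehicle and 11603, 13779, 13570.0, 15350.1 and 14971 with GPI. Wt1 was the most abundant (-0.14, not called, but passing at 0.0491 as lower with scaling by total counts, range 0.0491 to 0.486), Nr5a1 (1.11), Sox8 (1.43), Sox9 (0.59), Dhh (0.92) and Dmrt1 (0.53) rose, and Amh had a fold change of 0.08; Dmrt1 was not called without M2 (adjusted p = 0.102), M3 (0.114), M4 (0.186) or M5 (0.107), without the replicate block (0.0976) or with scaling by total counts (0.0613), within 0.00397 to 0.186. Interstitial progenitor markers, of the cells that hold much of the fibrillar collagen, were lower in 2 of 7 and higher in 1, with sums of 15022, 15381, 16683, 14000.0 and 16413 with vehicle and 15448, 17302, 15627, 14738 and 17627 with GPI. Pdgfra was the most abundant (0.33, higher), Tcf21 (-0.30) and Gli1 (-0.42) were lower, and Nr2f2 (-0.18) passed in 1 alternative alone, at 0.0441 with scaling by total counts (range 0.0441 to 0.293). Tcf21 lost its call without M2 (adjusted p = 0.0586), M3 (0.0942) or M4 (0.0743), within 0.00739 to 0.0942. Gli1 lost it without M3 (0.0739) or M4 (0.0611), without the replicate block (0.0702) and after removal of the GC and length trend (0.0755), within 0.00915 to 0.0755. Fetal Leydig cell markers were higher in 5 of 5 tested of 6, with sums of 1304, 2834, 4133, 2042 and 5585 with vehicle and 10094, 10664, 16556, 18911 and 13743 with GPI. Hsd3b1 was the most abundant (1.75), though Cyp11a1 (2.90) had the higher mean with GPI, Cyp17a1 (3.90) and Lhcgr (2.65) also rose, and Insl3 was at 0 in 4 libraries. These sums moved in the direction of Col23a1 and Col25a1, and the part of Sertoli and Leydig cells in the rise of Col23a1 and Col25a1 was not tested.

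Macrophage markers were lower in 6 of 7, with sums of 809, 548, 659, 593 and 511 with vehicle and 372, 329, 289, 190.4 and 205 with GPI; Cd68 was the most abundant (-0.76), Csf1r (-2.22), Cx3cr1 (-2.38), C1qa (-3.78) and C1qb (-1.91) fell, Adgre1 did not pass (-0.26), and C1qa was at 0 in GPI M5. Cd68 lost its call without the replicate block (adjusted p = 0.0571, range over the alternatives 0.00231 to 0.0571). Germ cell markers were lower in 5 of 6 tested of 8, with sums of 984, 2086, 1254, 1708 and 657 with vehicle and 133, 119, 45.6, 43.1 and 105 with GPI; Dazl was the most abundant (-4.62; Ddx4 with GPI), Dppa3 (-5.20), Sall4 (-4.89), Mael (-5.17) and Ddx4 (-2.72) fell, and Pou5f1, Mael and Nanos2 were at 0 in some libraries. The part of both cell types in the collagen results was not tested. Cartilage markers, relevant to Col2a1, Col9a1 and Col11a1, had sums of 1301, 1356, 1387, 1308 and 1249 with vehicle and 1393, 1229, 1306, 1441 and 1306 with GPI, with Sox5 the most abundant (-0.11), or Sox6 with GPI. Matn1 was at 0 in all 10 libraries, Acan held at most 25.7 normalized counts, and of 5 tested of 7 only Comp was called (3.51 ± 0.41, adjusted p = 3.13e-05), while Hapln1 (-0.38) and Sox6 (0.22) were not. Hapln1 passed without M1 (-0.58, adjusted p = 0.00202), without a low-count filter (0.0326) and with scaling by total counts (0.0475), within 0.00202 to 0.221. Mesonephric epithelium markers had sums of 706, 119, 310.4, 138 and 59.4 with vehicle and 181, 274, 114, 110.5 and 98.1 with GPI, most of it Pax8 (-0.28 ± 0.27, adjusted p = 0.526), the only 1 of 5 that was tested. Cdh16 held 113, 1.2, 48.0, 0.0 and 5.3 with vehicle and 10.1, 21.1, 2.9, 0.0 and 4.4 with GPI, and Pax2 28.8, 9.5, 11.2, 1.0 and 0.0 and 1.1, 29.2, 7.6, 3.2 and 7.6. Vehicle M1, the library with the most of these transcripts, also held the highest value of any library for 10 tested collagen genes (Col3a1, Col4a5, Col6a3, Col6a5, Col7a1, Col8a2, Col12a1, Col14a1, Col15a1 and Col26a1). Vehicle M2, with a sum of only 119, held the highest value for Col1a1, Col4a1, Col4a2, Col6a1, Col6a2, Col6a4, Col6a6 and Col27a1. Vehicle M3, with a sum of 310.4, held it for Col1a2, Col5a2, Col8a1, Col13a1 and Col20a1. The part of residual mesonephros in those values was not tested.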

How the data were processed

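RNA of 10 cultured gonads was amplified with an unstranded kit. Raw counts per gene were deposited by the authors, who had aligned the reads to mm10 using STAR 2.5 and assigned them to RefSeq genes, strand ignored, using featureCounts (Subread 1.5.0-p1). Genes were filtered by filterByExpr (minimum count 10, minimum total 15), scaled by TMM and tested with edgeR's quasi-likelihood test in a design of mouse and treatment at an FDR of 0.05. SE was obtained from the log2 fold change and the F statistic, as its size over the root of F. Log2 ratios of single mice used a prior count of 2. Lengths and GC contents are those of the longest GENCODE M21 transcript. Pairing comes from the embryo: deviations from the treatment mean correlated at 0.06 on average within a mouse (-0.04 to 0.155) and -0.015 between mice. Values of every library are given for collagens averaging at least 500 normalized counts or called with a change of 2-fold or more; of further lists, the 4 members with the smallest p, members called against the list's direction and, for markers, the most abundant and first 3 genes are named. Members and lists were chosen with earlier results of these data known. Col21a1 of these lists was not analysed here. Because of amplification, reads do not each stand for a molecule, and mice served as the replicates. No 2 libraries of a treatment agreed within sampling noise (chi-square per degree of freedom 6.42 to 27.8). The procedure was also run on simulated counts that held no mouse effect, so that run could not check the pairing. The test was repeated without the replicate block, with each mouse left out, with limma-voom or DESeq2, with scaling by total counts or by the size factors of DESeq2, after removal of a loess trend (span 0.5) on length and GC, with no filter for low counts, and with a filter of 10 counts or more in all libraries. Python 3.11.15 (numpy 2.4.6, matplotlib 3.10.9, pandas 2.3.3) and R 4.3.3 (DESeq2 1.42.0, edgeR 4.0.16, limma 3.58.1) were used.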

Additional observations from a re-analysis of the deposited data

Results flagged for a closer look

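In 214 groups of 5 values, 1 for each treatment of each named gene that passed the low-count filter, 10 held a library far from the other 4, judged by its gap to the nearest value relative to the range. Chance marks about 1 such group in 20. Among tested collagens this was Col4a5 in vehicle M1, with 935.7 normalized counts against 608.6 to 684.3 in the others. Genes set aside for low counts were not screened; of these, Col22a1 held 32.7 in GPI M5 against 6.3 to 11.2.

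Of the enzymes and partners, P4ha1 held 1308 in GPI M1 against 303.3 to 522.9, and Loxl2 held 2037 in GPI M1 against 916.1 to 959.9. Plod1 held 738.6 in vehicle M1 against 495.2 to 547.8, and Adamts2 held 851.0 in vehicle M5 against 657.5 to 703.5. Itga2 held 559.8 in vehicle M4 against 367.5 to 422.1, and Itga1 held 224.6 in GPI M2 against 71.9 to 96.8. Fmod held 199.3 in vehicle M2 against 105.2 to 118.1, and 64.2 in GPI M4 against 80.3 to 86.5. Of the markers, Notch3 held 565.6 in vehicle M2 against 411.4 to 454.1.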

How the results depend on the processing

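The 2 collagen genes called higher, Col23a1 and Col25a1, stayed called in every alternative, and the number called lower, 14, ran from 11 with the GC and length trend removed to 19 with scaling by total counts. With each mouse left out in turn, 12 to 16 were lower and 2 to 2 higher, and the medians ran from -0.42 to -0.39 for basement membrane and from -0.46 to -0.27 for other collagens, whose median moved to -0.46 without M2. Without M2 the basement membrane median was -0.39, so the order of the lists turned around. The cause of that shift was not tested. The basement membrane median moved to -0.27 with the GC and length trend removed. Without the replicate block, 14 were lower and 2 higher. This unpaired fit moved Col6a1 and Col5a2 across the threshold and changed no other collagen call. Of the 16 called collagen genes, 12 kept their call in every alternative in which they were tested.

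Signs reversed only among genes that were not called, and the cause was not tested. With scaling by total counts the estimate was -0.04 for Col12a1, -0.02 for Col4a5 and -0.02 for Col9a2, and with limma-voom it was -0.01 for Col9a2. With the GC and length trend removed it was 0.10 for Col1a2 and 0.05 for Col20a1. With each mouse left out, estimates ran from -0.22 to 0.19 for Col12a1, -0.85 to 0.18 for Col17a1, -0.07 to 0.01 for Col1a2, -0.51 to 0.26 for Col20a1, -0.04 to 0.11 for Col4a5, -0.17 to 0.31 for Col9a1, -0.05 to 0.19 for Col9a2, -0.12 to 0.29 for Amh and -0.26 to 0.07 for Tagln. With M1 and M3 both left out, chosen after seeing the data, estimates were 0.38 for Col17a1, 0.04 for Col1a2, 0.41 for Col20a1, 0.24 for Col8a1 and -0.15 for Col9a2. Rare members were measured less precisely, with standard errors of 0.41 for Col2a1 and Col7a1.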
